A study of Mus musculus with 3 samples.

Results

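The insulin-like growth factor (IGF) family examined here comprised 9 genes listed by name: the ligands Igf1 and Igf2, the receptor Igf1r and the binding proteins Igfbp2, Igfbp3, Igfbp4, Igfbp5, Igfbp6 and Igfbp7. They were 9 of the 27998 genes counted in each of 3 single-cell RNA sequencing (scRNA-seq) libraries of non-cardiomyocytes (non-CMs) from mouse ventricles, and 8 of them had at least 20 unique molecular identifiers (UMIs, each standing for 1 captured transcript) in the cells described below. Igfbp2 had 1 UMI in all. The mice were wild-type C57BL/6J JCL males. Transverse aortic constriction (TAC), which loads the left ventricle with pressure, was done at 8 weeks of age. The library of the healthy phase, labelled as the control, was made at TAC 0 weeks (the normal phase). That of the adaptive hypertrophy phase was made at 2 weeks and that of the heart failure phase at 12 weeks. Later phases thus came from older mice, and none of the 3 libraries was an age-matched sham. The cells came from collagenase digestion and a Percoll gradient and entered 3' libraries, so CMs were largely left out. There was 1 library per phase and the number of hearts in each is not given in the sources used here. Phase, age and library therefore cannot be told apart, no test between phases was possible, and every interval below is a 95% interval that covers counting error only.

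IGF1 and IGF2 are secreted growth factors that signal through the tyrosine kinase receptor encoded by Igf1r. The IGF-binding proteins hold the ligands in the extracellular space and the circulation and set how much reaches the receptor, and several also act on cells on their own; IGFBP7 binds insulin-like growth factors only weakly. In the heart, IGF1 is known as a growth and survival factor of CMs, which were not sampled here.

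The healthy library held 12309881 UMIs in 3900 barcodes, the 2-week library 4472377 in 2239 and the 12-week library 1723863 in 802, so the healthy library was the deepest and the heart failure library the smallest. Cells were sorted into endothelial cells (ECs), fibroblasts (FBs), mural cells (pericytes and smooth muscle cells) and macrophages by the summed UMIs of marker genes that include no member. At 0, 2 and 12 weeks this gave 1142, 1753 and 307 ECs, 1205, 84 and 176 FBs, 412, 68 and 39 mural cells, and 859, 121 and 63 macrophages. Each of 20 further markers that the sorting did not use (5 per class) was highest in its own class in 3 of 3 libraries. EC transcripts were nonetheless counted in mural cells. The 5 EC markers among these (Flt1, Tek, Ptprb, Ly6c1 and Ramp2) summed to 1740, 2184 and 1020 CPM (defined below) in mural cells, against 4049, 6755 and 6792 CPM in ECs. What part EC transcripts had in the mural level of any member was not tested. In the same order 183, 179 and 109 cells met no class and 91, 26 and 98 fell to other marker lists (lymphoid, granulocyte, neural and epicardial). The libraries shared few barcode sequences: 5 barcodes were shared by the healthy and 2-week libraries, 1 by the healthy and 12-week libraries and 3 by the 2- and 12-week libraries. No healthy cell in the 4 classes had under 1000 UMIs, whereas 451 of 1753 ECs at 2 weeks and 106 of 307 at 12 weeks did. Levels are UMIs of a gene per 1000000 UMIs of a class (CPM), which in 3' libraries count a transcript once whatever its length. A change between phases was called when the CPM ratio was at least 2 or at most 0.5 with at least 20 UMIs over both phases. A lower class level may reflect fewer expressing cells or less RNA per cell, which a class sum does not separate.

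**Figure D1:**
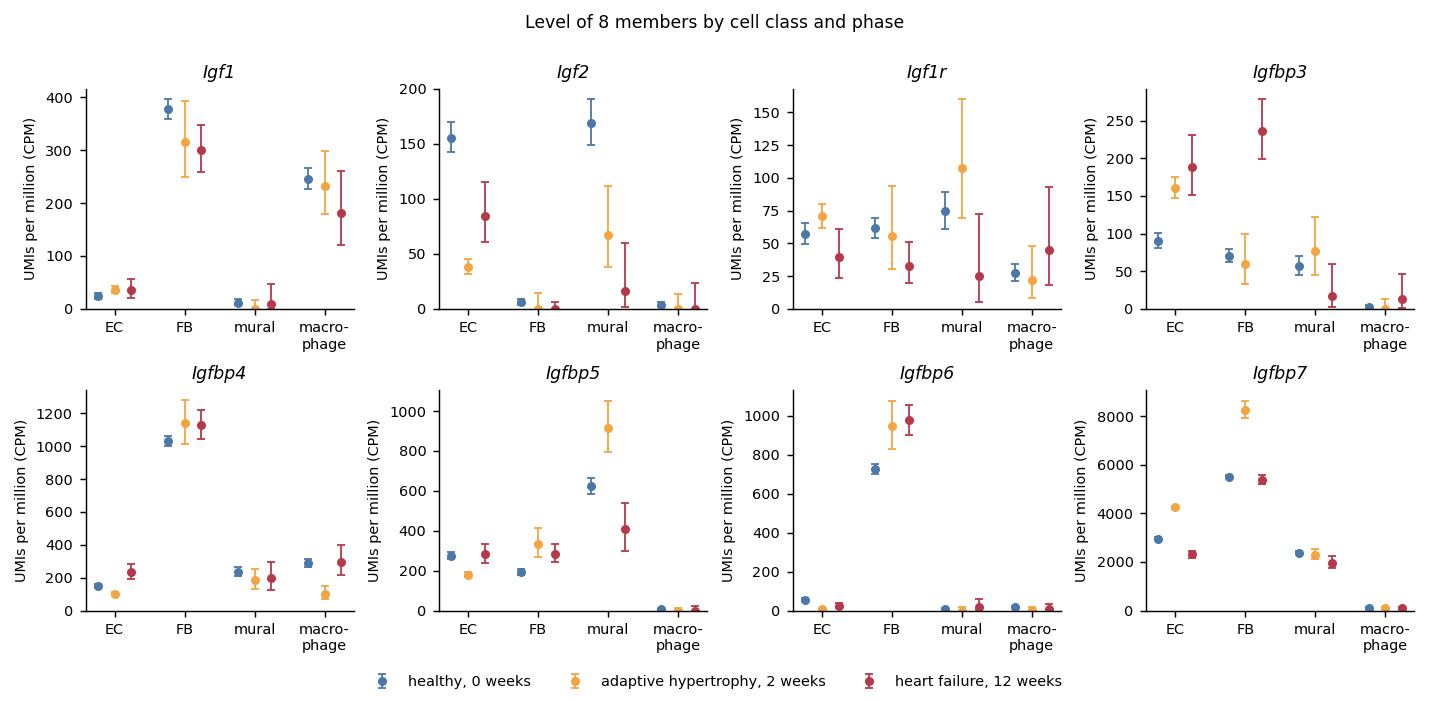
Levels (CPM, linear axes from 0) of the 8 members with at least 20 UMIs in ECs, FBs, mural cells and macrophages at 0, 2 and 12 weeks of TAC; points are class sums of 1 library and bars exact Poisson 95% intervals. Igf1, Igfbp4, Igfbp6 and Igfbp7 were highest in FBs in 3 of 3 libraries, Igfbp5 in mural cells, and Igfbp3 in FBs at 12 weeks (237 CPM) stood above both earlier phases.

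Of the 8 members, 5 had the same leading class in 3 of 3 libraries. Igf1, Igfbp4, Igfbp6 and Igfbp7 led in FBs and Igfbp5 in mural cells. Igf2 was shared by mural cells and ECs, with a mural to EC ratio of 1.08 (0.929 to 1.26) at 0 weeks and 1.76 (0.959 to 3.02) at 2 weeks, both within counting error, and an EC to mural ratio of 5.11 (1.33 to 43.6) at 12 weeks. Igfbp3 was highest in ECs at 0 and 2 weeks, and at 12 weeks the FB level was 1.26 times (0.961 to 1.66) that of ECs, a lead within counting error. Igf1r had no stable order. The 300-base stretches around a listed transcription start of the 4 genes that led in FBs are shown here from RefSeq, build GRCm38.p6, because these genes share a leading class. Each reads 5′ to 3′ on the gene's own strand, and capitals mark matches on either strand to TATAAA, known as the core of a TATA box, to GGGCGG, that of a GC box, and to CCAAT, that of a CAAT box. No match overlapped another. The windows were chr10:87860861-87861160 (plus strand) for Igf1, chr11:99040994-99041293 (plus) for Igfbp4, chr15:102143936-102144235 (plus) for Igfbp6 and chr5:77407996-77408295 (minus) for Igfbp7. By the gene coordinates given below, the Igf1 window lies inside the gene, which starts at 87858265. The Igfbp6 window ends before that gene's start at 102144362.
Igf1: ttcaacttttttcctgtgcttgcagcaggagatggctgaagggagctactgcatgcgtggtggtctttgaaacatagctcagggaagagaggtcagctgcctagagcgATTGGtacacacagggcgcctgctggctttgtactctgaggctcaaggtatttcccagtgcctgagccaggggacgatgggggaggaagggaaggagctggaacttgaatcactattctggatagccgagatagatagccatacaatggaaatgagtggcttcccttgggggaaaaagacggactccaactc
Igfbp4: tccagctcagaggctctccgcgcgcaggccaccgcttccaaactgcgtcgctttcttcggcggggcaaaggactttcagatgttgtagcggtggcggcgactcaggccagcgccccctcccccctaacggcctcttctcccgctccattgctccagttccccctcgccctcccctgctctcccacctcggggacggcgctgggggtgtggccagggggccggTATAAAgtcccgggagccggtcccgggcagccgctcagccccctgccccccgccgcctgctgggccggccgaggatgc
Igfbp6: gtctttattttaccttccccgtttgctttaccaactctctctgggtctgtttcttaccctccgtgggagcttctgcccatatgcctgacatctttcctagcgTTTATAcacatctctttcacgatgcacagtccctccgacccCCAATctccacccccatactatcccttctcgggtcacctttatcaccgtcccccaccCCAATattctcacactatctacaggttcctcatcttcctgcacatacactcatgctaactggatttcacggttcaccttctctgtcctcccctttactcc
Igfbp7: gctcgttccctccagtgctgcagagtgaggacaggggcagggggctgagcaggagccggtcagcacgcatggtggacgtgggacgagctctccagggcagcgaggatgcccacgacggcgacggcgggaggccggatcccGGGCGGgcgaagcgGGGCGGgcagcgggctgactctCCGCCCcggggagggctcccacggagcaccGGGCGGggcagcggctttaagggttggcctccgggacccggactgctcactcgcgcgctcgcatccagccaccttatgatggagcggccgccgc
No motif was common to the 4 windows. TATAAA stood once in the windows of Igfbp4 and Igfbp6 and in 13.6% of all 32851 promoter windows of the same length. GGGCGG stood 4 times in the Igfbp7 window, in none of the other three and in 35.7% of all windows. CCAAT stood once for Igf1 and 2 times for Igfbp6, against 37.4% of all windows with at least 1. Shared leading class thus went with different letters in these windows, from a guanine and cytosine content of 49.7% for Igfbp6 and 52.3% for Igf1 to 71.3% for Igfbp4 and 73.3% for Igfbp7. These matches describe the letters only.

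Changes between phases by 2-fold or more were few among the members. In ECs at 2 weeks no member was called higher, beside 4.21% of the 10466 genes that passed the count minimum, and 2 of 8 were called lower, Igf2 and Igfbp6, beside 6.5% of all genes. In ECs at 12 weeks 1 of 8 was called higher, Igfbp3 (background 6.25%), and 1 lower, Igfbp6 (6.73%). In FBs none of 7 was called at 2 weeks, where 5.3% of all genes were called higher and 8.93% lower, and at 12 weeks Igfbp3 alone was called, as higher (4.76% of all genes higher and 5.42% lower). In mural cells Igf2 was called lower at 2 weeks (1 of 6, background 3.46% higher and 9.15% lower), and Igf2, Igf1r and Igfbp3 at 12 weeks (3 of 6, background 4.5% higher and 15.1% lower). In macrophages Igfbp4 was called lower at 2 weeks (1 of 4, background 7.38% higher and 9.61% lower) and none of 3 at 12 weeks (6.06% higher and 8.5% lower). With so few members per class, shares near the background cannot be told from it; the calls in FBs at 12 weeks and in mural cells at 12 weeks are described below with their counts, since those in mural cells rest on 2 or 3 UMIs each at 12 weeks. The median log2 ratio of the members that passed was between -0.18 and 0.19 in 6 of the 8 comparisons, -0.44 in macrophages at 12 weeks and -1.10 in mural cells at 12 weeks, beside medians of all genes between -0.06 and 0.07.

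**Figure D2:**
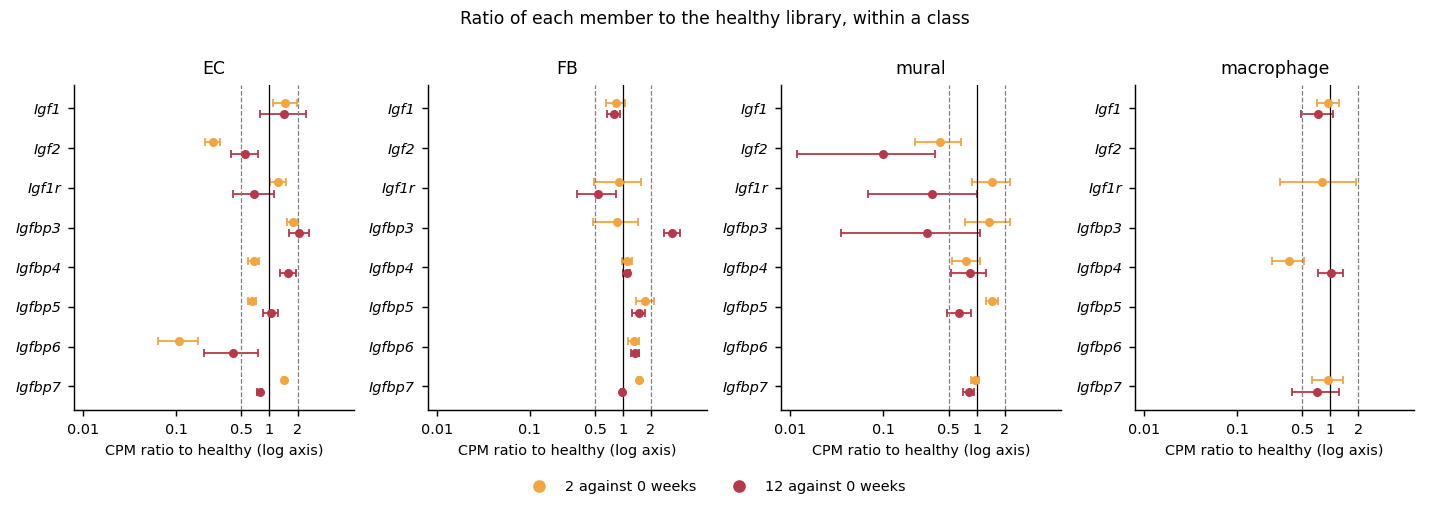
CPM ratio to the healthy library (log axis) of each member that passed the count minimum, within each class, at 2 weeks (orange) and 12 weeks (red) of TAC; bars are exact 95% counting intervals, the solid line marks 1 and the dashed lines 0.5 and 2. Igf2 lies left of the lower dashed line in ECs at 2 weeks (0.246) and in mural cells, and Igfbp3 right of the upper one in FBs at 12 weeks (3.37).

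Igf1 (ENSMUSG00000020053, chromosome 10, 87858265 to 87937042, GRCm38) was a product of FBs and macrophages. In FBs its level was 377 CPM (1491 UMIs) in the healthy library, 316 CPM (79 UMIs) at 2 weeks and 301 CPM (183 UMIs) at 12 weeks. Macrophages held 246, 233 and 181 CPM in the same order, ECs 24.5, 35.9 and 35.1 CPM, and mural cells 11.9, 0 and 8.30 CPM. The order FB, macrophage, EC, mural was the same in 3 of 3 libraries, with the FB and macrophage intervals apart in the healthy library and overlapping at 2 and 12 weeks. At least 1 Igf1 UMI was found in 53.7%, 45.2% and 47.2% of FBs and in 40.6%, 25.6% and 22.2% of macrophages. After each cell was thinned to 1000 UMIs these shares were 28.9%, 19.4% and 23.9% in FBs and 20.7%, 12.9% and 11.9% in macrophages, against 0.971%, 0 and 0 in mural cells, the lowest class. The FB level at 12 weeks was 0.798 times the healthy one (interval 0.680 to 0.930), short of the 2-fold rule, and the macrophage level 0.735 times (0.484 to 1.07).

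Within macrophages Igf1 differed between cells led by different marker lists. Cells with most UMIs of Folr2, Lyve1 and Timd4, genes known from long-lived resident macrophages, had 333 CPM (interval 300.0 to 370 CPM, 341 cells) in the healthy library, whereas cells with most UMIs of Ccr2, Cd209a, Ly6c2 and Plac8, genes of monocyte-derived and dendritic cells, had 52.7 CPM (24.1 to 100.1, 45 cells). At 2 weeks the values were 718 CPM in 6 cells and 31.8 CPM in 30 cells, and at 12 weeks 307 CPM in 11 cells and 49.6 CPM in 13 cells. The Folr2 Lyve1 cells were thus above the Ccr2 Cd209a cells in each library, with no overlap of their intervals at 0 and 2 weeks and a small one at 12 weeks (140 to 582 against 10.2 to 145 CPM). Over the same libraries the Folr2 Lyve1 cells went from 39.7% to 4.96% and 17.5% of all macrophages. The Igf1 level of the class as a whole differed by less than its counting error between 0 and 2 weeks (ratio 0.947, 0.719 to 1.23). Within the Folr2 Lyve1 cells that ratio was 2.15 (1.26 to 3.45, 18 UMIs at 2 weeks). Macrophages led by neither list were 55.1%, 70.2% and 61.9% of the class at 0, 2 and 12 weeks. They had 195, 278 and 246 CPM (2 to 0 weeks 1.42, 1.001 to 1.98). At 2 weeks 5 macrophages held 32 of the 63 Igf1 UMIs and at 12 weeks 5 held 19 of 28, and without the top 5 cells of each library the class levels were 232, 124 and 69.3 CPM.

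Among FBs, the few cells with most UMIs of Inmt and Gdf10 had the highest Igf1 level, 812 CPM (629 to 1031, 26 cells) in the healthy library and 718 CPM (393 to 1205, 10 cells) at 12 weeks, with none of these cells at 2 weeks. FBs led by Pi16 and Cd248, the largest group, held 309, 165 and 253 CPM. FBs led by the matrix genes Postn, Cilp and Thbs4, which are known to rise in activated fibroblasts, held 454, 357 and 363 CPM. In the FBs led by Wif1, Comp and Chad the level was 543 CPM in the healthy library, 347 CPM at 2 weeks and 305 CPM at 12 weeks (12 to 0 weeks 0.562, 0.356 to 0.856). The Igf1 level was lower at 12 than at 0 weeks in each of the 6 FB groups, FBs without a leading list included, and the interval of the ratio excluded 1 in 3 of them.

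In ECs the low Igf1 level was uneven. ECs with most UMIs of Vwf and Nr2f2, 2 of 3 markers listed for veins (the other, Ackr1, was in 6.02% of these cells), had 93.96, 210 and 397 CPM at 0, 2 and 12 weeks, in 50, 73 and 10 cells, against 25.4, 29.2 and 0 CPM in ECs with most UMIs of the capillary genes Car4 and Aplnr. At 12 weeks 16 of the 17 Igf1 UMIs in ECs lay in 5 cells, and without those cells the level was 2.14 CPM. FB transcripts were also counted in ECs: the level of 5 FB genes (Col3a1, Col1a2, Dcn, Mfap5 and Fbln1) in ECs, as a share of that in FBs, ran from 1.74 to 3.12% in healthy ECs, from 0.174 to 0.747% in the 2-week ECs and from 1.27 to 3.49% in the 12-week ECs. Igf1 in ECs was 6.49%, 11.4% and 11.7% of its FB level, above that range in each library. In ECs without a UMI of any FB marker it was 28.4, 28.5 and 5.87 CPM (1 UMI at 12 weeks).

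Igf2 (ENSMUSG00000048583, chromosome 7, 142650766 to 142666816) was found mainly in ECs and mural cells, the classes with the lowest Igf1 levels. ECs held 156 CPM (528 UMIs) in the healthy library, 38.2 CPM (129 UMIs) at 2 weeks and 84.7 CPM (41 UMIs) at 12 weeks, and mural cells 169 (256 UMIs), 67.4 (15 UMIs) and 16.6 CPM (2 UMIs). FBs had 5.82 CPM and macrophages 3.23 CPM in the healthy library and neither had an Igf2 UMI at 2 or 12 weeks. A count of 0 in 84 and 176 FBs, with the limit put at 3 cells, allows a share of cells with a UMI of up to 3.57% and 1.70%. The healthy level was thus the highest of the 3 in both vascular classes, and the EC intervals of the 3 libraries did not overlap. In ECs the 2-week level was 0.246 times the healthy one (0.201 to 0.298) and the 12-week level 0.544 times (0.386 to 0.748), and from 2 to 12 weeks the ratio was 2.22 (1.52 to 3.17). The mural ratio to the healthy library was 0.400 (0.220 to 0.672) after 2 weeks of TAC, and after 12 weeks, where 2 UMIs were counted, it was 0.0984 (0.0119 to 0.359). The EC markers in mural cells went from 1740 to 2184 and 1020 CPM, and the part of EC transcripts in the mural Igf2 level was not tested.

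The groups of ECs differed widely in Igf2. Over the 3 libraries together, ECs led by Npr3, Cytl1 and Cdh11, genes listed for the endocardium, held Cytl1 in 96.7% of cells, Npr3 in 34.1% and Cdh11 in 28.5%. They had 913 CPM (803 to 1034) of Igf2 in the healthy library. Arterial-like ECs (Gja4, Gja5, Hey1 and Sema3g) had 471 CPM (382 to 574), Vwf Nr2f2 ECs 238 CPM and Car4 Aplnr ECs 29.0 CPM. At 2 weeks the same groups had 208, 219, 5.52 and 3.25 CPM, each below its healthy value with the interval of the ratio under 1: 0.228 (0.103 to 0.439), 0.465 (0.343 to 0.628), 0.0232 (0.000575 to 0.137, 1 UMI) and 0.112 (0.0291 to 0.310). At 12 weeks the Npr3 Cytl1 Cdh11 ECs had 265 CPM and the arterial-like ECs 215 CPM, again below the healthy values (ratios 0.290 and 0.456). The share of ECs in the Npr3 Cytl1 Cdh11 group was 7.09%, 0.913% and 8.47% at 0, 2 and 12 weeks, and that of arterial-like ECs 5.95%, 10.3% and 9.12%. In the library with the lowest EC level, the group with the highest healthy level was thus scarcest. Arterial-like ECs, next in healthy level, had their largest share there. What part these shares had in the EC level was not tested. The make-up of the Npr3 Cytl1 Cdh11 group also moved, with Npr3 at 737, 323 and 109 CPM in it. Npr3 was in 37 of 81, 3 of 16 and 2 of 26 of its cells, Cdh11 in 31, 2 and 2, and Cytl1 in 80, 15 and 24. At 2 and 12 weeks the group thus held mostly cells with Cytl1 alone of the 3 markers. What part this had in its levels of Igf2 and of other genes was not tested. In mural cells, Myh11 Tagln cells (led also by Cnn1 and Acta2, and by the haemoglobin genes Hbb-bs and Hba-a1 when set against other mural cells) went from 162 to 37.9 and 21.5 CPM, and pericyte-like cells (Rgs5, Kcnj8, Abcc9 and Vtn) from 181 to 147 and 0 CPM. ECs without an FB marker UMI gave 160.5, 24.8 and 70.5 CPM, the same order of phases.

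**Figure D3:**
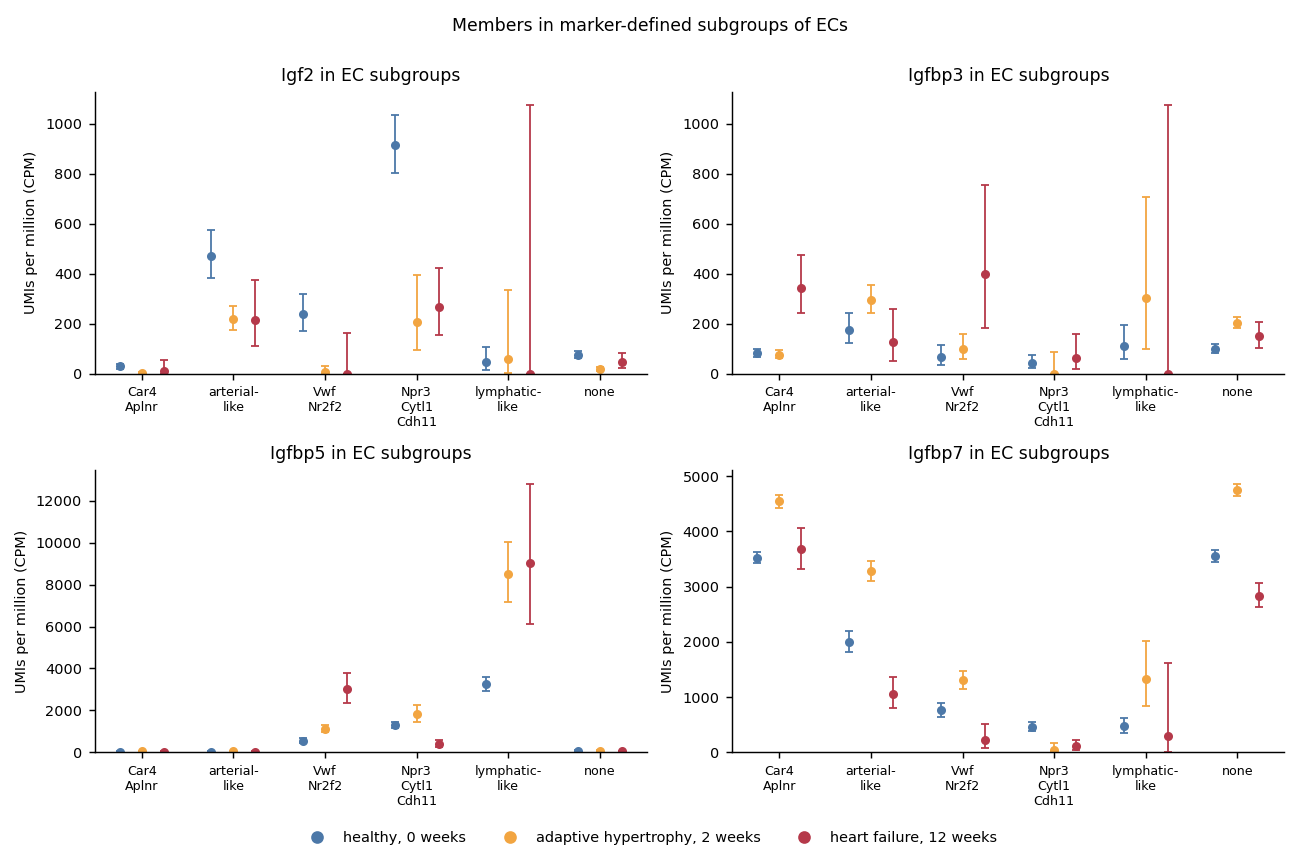
Levels of Igf2, Igfbp3, Igfbp5 and Igfbp7 (CPM, linear axes from 0) in groups of ECs by leading marker list, at 0, 2 and 12 weeks; points are sums over the cells of a group in 1 library, bars exact Poisson 95% intervals, and "none" holds ECs led by no list. Igf2 was highest in Npr3 Cytl1 Cdh11 and arterial-like ECs, Igfbp5 in lymphatic-like ECs (3237 CPM in the healthy library) and Igfbp7 in Car4 Aplnr ECs and in ECs led by no list.

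Igf1r (ENSMUSG00000005533, chromosome 7, 67952827 to 68233668), the receptor of both ligands, was low and spread over the 4 classes. ECs had 56.9, 70.8 and 39.3 CPM at 0, 2 and 12 weeks, FBs 61.5, 55.9 and 32.9 CPM, mural cells 74.4, 108 and 24.9 CPM, and macrophages 27.0, 22.2 and 45.2 CPM. In the healthy library the 3 other classes lay above macrophages without overlap of intervals. Mural cells stood 1.31 times (1.03 to 1.66) above ECs in that library, and at 12 weeks the intervals of all neighbours in the order overlapped. The 12-week level was below the healthy one in FBs, with a ratio of 0.535 (0.321 to 0.844, 20 UMIs at 12 weeks). In ECs the ratio was 0.690 (0.407 to 1.11), so a difference was not detectable at this depth. The mural ratio, the only one of these called, was 0.334 (0.0679 to 1.002) with 3 UMIs at 12 weeks, so its interval held 1. Igf1r was found in 18.0% of healthy FBs with a median of 2972 UMIs and 10.2% of FBs at 12 weeks with a median of 2578 UMIs, and in 7.55% and 5.66% after thinning to 1000 UMIs. Healthy FBs with an Igf1 UMI had 59.5 CPM of Igf1r (50.0 to 70.3) and those without 64.2 CPM (52.5 to 77.8), with overlapping intervals.

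Igfbp2 (ENSMUSG00000039323, chromosome 1, 72824503 to 72852474), a binding protein of the adult circulation, had 1 UMI, in a healthy mural cell, among 6229 cells of the 4 classes. Its neighbour Igfbp5 (ENSMUSG00000026185, chromosome 1, 72857932 to 72874884), which lies on the other strand with a gap of 5457 bases between the 2 genes, was counted in all 3 libraries in ECs, FBs and mural cells.

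Igfbp3 (ENSMUSG00000020427, chromosome 11, 7206086 to 7213923), the main carrier of IGF1 in blood, was the member whose level in FBs differed most between phases. FBs had 70.3 CPM (278 UMIs) in the healthy library, 59.9 CPM (15 UMIs) at 2 weeks and 237 CPM (144 UMIs) at 12 weeks. The interval at 12 weeks (200 to 279 CPM) lay above those at 0 weeks (62.3 to 79.1 CPM) and 2 weeks (33.5 to 98.8 CPM), for a ratio of 3.37 (2.73 to 4.13) to the healthy level and 3.95 (2.32 to 7.24) to the 2-week level. The share of FBs with a UMI was 6.72%, 5.95% and 14.8%, and 4.07%, 1.49% and 10.1% after thinning to 1000 UMIs, beside a thinned share of 0.233%, 0 and 0 in macrophages. The signal lay in few cells: 5 FBs held 104 of the 278 UMIs at 0 weeks, all 15 at 2 weeks and 73 of the 144 at 12 weeks, and without those cells the levels at 0 and 12 weeks were 44.2 and 122 CPM.

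The Igfbp3 level at 12 weeks differed among groups of FBs. In Inmt Gdf10 FBs it was 206 CPM in the healthy library and 975 CPM at 12 weeks (ratio 4.73, 2.33 to 9.69), in Cxcl14 Hsd11b1 FBs 37.4 and 510 CPM (13.6, 5.14 to 39.9), in Postn Cilp Thbs4 FBs 31.5 and 226 CPM (7.17, 4.13 to 12.7) and in Wif1 Comp Chad FBs 119 and 328 CPM (2.76, 1.58 to 4.81). These 4 groups held 10, 12, 29 and 24 FBs at 12 weeks. Pi16 Cd248 FBs stayed low, with 26.3 CPM in 697 healthy cells and 32.2 CPM in 64 cells at 12 weeks (1.23, 0.473 to 2.68), and FBs led by no list had 333 and 423 CPM (1.27, 0.858 to 1.83). Pi16 Cd248 FBs were 57.8% of healthy FBs and 36.4% of those at 12 weeks, so both the levels within 4 groups and the make-up of the class moved. At 2 weeks Postn Cilp Thbs4 FBs, 46 of the 84 FBs, had 13.5 CPM (2 UMIs).

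In ECs Igfbp3 was 90.5, 161 and 188 CPM at 0, 2 and 12 weeks, with the healthy interval below both others and a ratio of 1.77 (1.54 to 2.05) at 2 weeks and 2.08 (1.63 to 2.63) at 12 weeks. Car4 Aplnr ECs had 81.8, 76.4 and 344 CPM, so their level differed from the healthy one at 12 weeks (4.21, 2.81 to 6.17) and not beyond counting error at 2 weeks (0.933, 0.702 to 1.24). Arterial-like ECs had 175, 296 and 125 CPM, highest at 2 weeks. The call in ECs at 12 weeks did not hold in 5 of 11 alternatives, where the ratio fell to as little as 1.83. Transcripts of 4 haemoglobin genes took 94.04, 311 and 6975 CPM of ECs in the 3 libraries, and with mitochondrial, ribosomal protein, haemoglobin and cardiomyocyte UMIs left out of the total the Igfbp3 call was kept. In mural cells Igfbp3 had 56.6, 76.4 and 16.6 CPM, with 2 UMIs at 12 weeks (ratio 0.293, 0.0349 to 1.09). Pericyte-like cells carried most of it in the healthy library, with 117 CPM against 27.7 CPM in Myh11 Tagln cells.

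**Figure D4:**
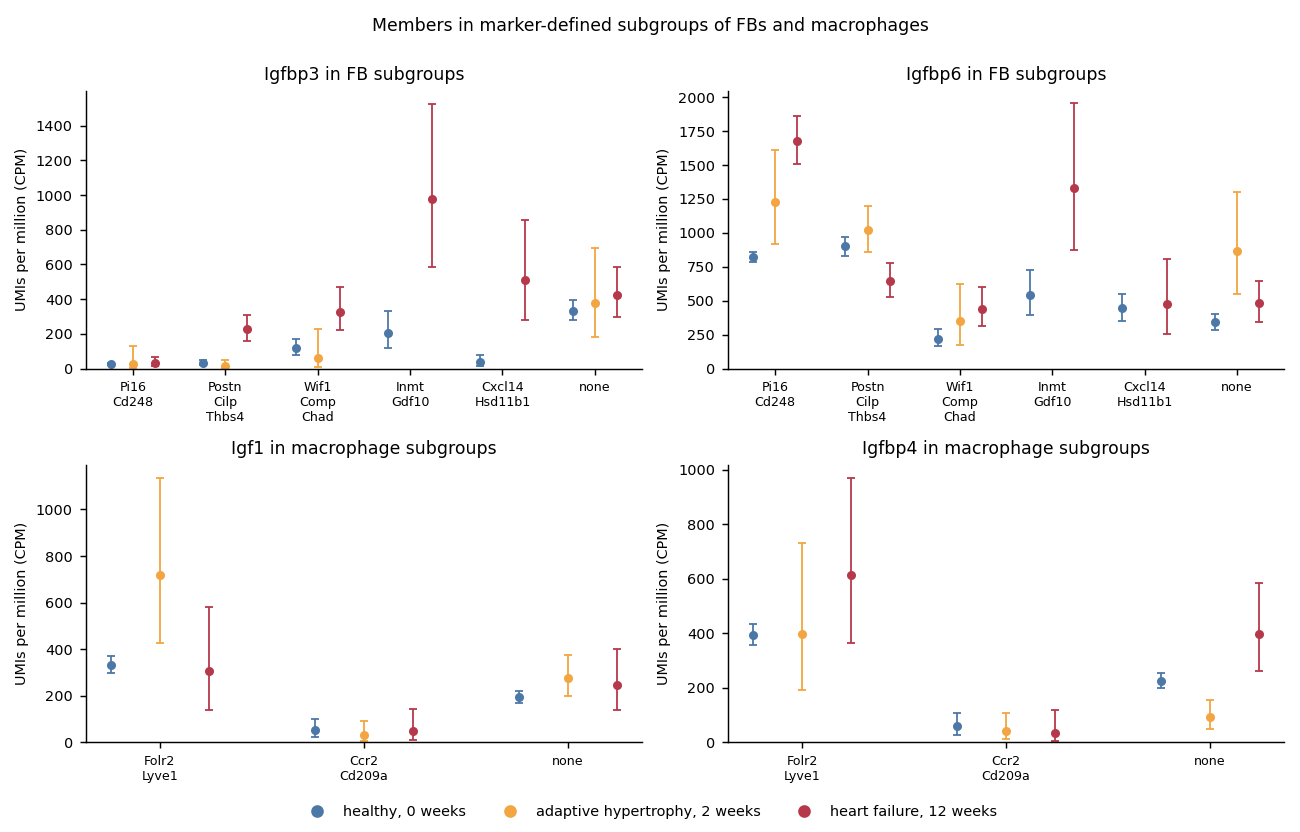
Levels (CPM, linear axes from 0) of Igfbp3 and Igfbp6 in groups of FBs and of Igf1 and Igfbp4 in groups of macrophages by leading marker list at 0, 2 and 12 weeks; points are sums over the cells of a group in 1 library (groups of under 4 cells left out), bars exact Poisson 95% intervals. At 12 weeks Igfbp3 was higher than in the healthy library in the 4 FB groups other than Pi16 Cd248 (32.2 CPM) that a list led, and Igf1 and Igfbp4 were higher in Folr2 Lyve1 than in Ccr2 Cd209a macrophages in each library.

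Igfbp4 (ENSMUSG00000017493, chromosome 11, 99041244 to 99054392), which is known to block IGF action until it is cleaved by pappalysin, differed little between phases in FBs. FBs held 1030.4, 1139 and 1129 CPM at 0, 2 and 12 weeks, 3.57 to 6.18 times the level of the second class in each library, and 82.1%, 89.3% and 86.9% of FBs had a UMI. The ratios to the healthy level were 1.11 (0.977 to 1.25) and 1.10 (1.01 to 1.19). Among healthy FB groups the level ran from 749 CPM in Postn Cilp Thbs4 FBs to 1842 CPM in Inmt Gdf10 FBs. Mural cells had 237, 184 and 199 CPM, differences that were not detectable in the class sum at this depth, and ECs 149, 101 and 236 CPM. The mural groups went opposite ways at 2 weeks. Myh11 Tagln cells had 269, 120 and 215 CPM (2 to 0 weeks 0.446, 0.265 to 0.711, 19 UMIs at 2 weeks). Pericyte-like cells had 167, 328 and 146 CPM (1.96, 1.14 to 3.23, 20 UMIs). The difference between the groups was not tested.

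In macrophages Igfbp4 was 289 CPM (716 UMIs) in the healthy library, 104 CPM (28 UMIs) at 2 weeks and 297 CPM (46 UMIs) at 12 weeks. The 2-week level stood apart from the other two, with a ratio of 0.359 (0.237 to 0.523) to the healthy level and of 2.87 (1.75 to 4.76) for 12 against 2 weeks. Folr2 Lyve1 macrophages had 394, 399 and 614 CPM and Ccr2 Cd209a macrophages 58.6, 42.4 and 33.1 CPM. Within Folr2 Lyve1 macrophages the 2-week level was therefore not detectably different from the healthy one (1.01, 0.482 to 1.88, 10 UMIs in 6 cells), while their share of macrophages went from 39.7% to 4.96%. Macrophages led by neither list had 227, 92.7 and 399 CPM (2 to 0 weeks 0.408, 0.220 to 0.697). FB transcripts in macrophages moved the same way, with 5 FB genes summing to 398, 55.5 and 387 CPM, and their part in the Igfbp4 level was not tested. Those 5 genes stood at 1.36 to 1.94% of their FB level in healthy macrophages, where Igfbp4 stood at 28.0%.

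Igfbp5 (chromosome 1, above), whose protein also binds the extracellular matrix, led in mural cells, with 624, 917 and 407 CPM at 0, 2 and 12 weeks. The 2-week level was 1.47 times (1.26 to 1.71) and the 12-week level 0.652 times (0.479 to 0.869) the healthy one, neither past 2-fold, whereas the 12-week level was 0.443 times (0.318 to 0.608) that at 2 weeks. Myh11 Tagln cells had 714, 1011 and 376 CPM and pericyte-like cells 445, 705 and 511 CPM. FBs had 194, 336 and 286 CPM (ratios 1.73, 1.36 to 2.17, and 1.47, 1.24 to 1.74). These differences rested on few cells: 5 FBs held 98 of 767, 49 of 84 and 77 of 174 UMIs, and without them the levels were 170.2, 156 and 166 CPM. Postn Cilp Thbs4 FBs, the group with most cells at 2 weeks, had 183, 378 and 381 CPM.

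In ECs Igfbp5 was concentrated in few cells. Only 9.46%, 3.82% and 4.56% of ECs had a UMI at 0, 2 and 12 weeks although the class level was 276, 180 and 283 CPM, and 1 healthy EC held 88 UMIs. Lymphatic-like ECs (Prox1, Mmrn1, Ccl21a, Flt4 and Lyve1) had 3237 CPM in 32 healthy cells, 8521 CPM in 12 cells at 2 weeks and 9027 CPM in 4 cells at 12 weeks, with ratios to the healthy level of 2.63 (2.15 to 3.21) and 2.79 (1.87 to 4.03). Npr3 Cytl1 Cdh11 ECs had 1280 CPM (1149 to 1421) at 0 weeks, 1824 CPM at 2 weeks and 390 CPM (252 to 575) at 12 weeks, and Vwf Nr2f2 ECs 558, 1121 and 3002 CPM. Car4 Aplnr and arterial-like ECs stayed between 0 and 50.4 CPM. At 12 weeks 5 ECs held 111 of the 137 UMIs, and without them the EC level was 55.5 CPM.

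Igfbp6 (ENSMUSG00000023046, chromosome 15, 102144362 to 102149511), the binding protein known to prefer IGF2, was the member most restricted to FBs. FBs had 724, 947 and 975 CPM at 0, 2 and 12 weeks (ratios 1.31, 1.14 to 1.49, and 1.35, 1.23 to 1.47), in 58.4%, 61.9% and 62.5% of cells. The second class, ECs, had 55.7, 5.93 and 22.7 CPM, and mural cells and macrophages at most 16.6 CPM in any library. Pi16 Cd248 FBs had 822, 1226 and 1679 CPM (12 to 0 weeks 2.04, 1.82 to 2.29), whereas Postn Cilp Thbs4 FBs had 900, 1018 and 642 CPM (0.714, 0.577 to 0.877). Wif1 Comp Chad FBs were lowest, with 221 CPM in the healthy library and 441 CPM at 12 weeks. Groups of FBs thus went both ways while the class level was higher at 12 weeks by less than 2-fold, and the difference between groups was not tested.

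The Igfbp6 values of ECs moved with FB transcripts. The ratio in ECs was 0.106 (0.0635 to 0.169) at 2 weeks and 0.408 (0.200 to 0.747) at 12 weeks, while the 5 FB genes summed to 604, 67.6 and 415 CPM in the ECs of the 3 libraries. In ECs without an FB marker UMI, 388, 1508 and 134 cells, Igfbp6 had 16.4, 4.74 and 17.6 CPM, for ratios of 0.290 (0.127 to 0.653) and 1.08 (0.200 to 3.80), so the call at 12 weeks was lost. As a share of the FB level, Igfbp6 in ECs was 7.70%, 0.626% and 2.33%, above the range of the 5 FB genes in the healthy library and within it at 2 and 12 weeks. In the healthy library 126 of the 189 EC UMIs lay in Npr3 Cytl1 Cdh11 ECs (462 CPM, 81 cells), whose 5 FB genes summed to 2959 CPM against 351 CPM in Car4 Aplnr ECs.

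Igfbp7 (ENSMUSG00000036256, chromosome 5, 77349240 to 77408041), also known as angiomodulin, was the most abundant member in FBs, ECs and mural cells in 3 of 3 libraries. FBs had 5514, 8270.2 and 5383 CPM at 0, 2 and 12 weeks, ECs 2953, 4246 and 2312 CPM, mural cells 2388, 2305 and 1975 CPM, and macrophages 125, 118 and 90.4 CPM. The 2-week level was the highest in FBs and ECs, at 1.4999 times (1.43 to 1.57) and 1.44 times (1.40 to 1.47) the healthy level, and the mural level at 2 weeks was 0.965 times it (0.879 to 1.06). Of all binding protein UMIs, Igfbp7 made up 83.8%, 90.5% and 76.0% in ECs, 73.2%, 76.9% and 67.2% in FBs and 72.1%, 66.2% and 75.6% in mural cells. In macrophages Igfbp4 made up 65.8%, 45.9% and 73.0% and Igfbp7 28.6%, 52.5% and 22.2%, so Igfbp4 was the larger of the pair at 0 and 12 weeks and Igfbp7, by 32 against 28 UMIs, at 2 weeks.

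Among groups of ECs Igfbp7 was highest where Igfbp5 was low. Car4 Aplnr ECs had 3527, 4545 and 3683 CPM of Igfbp7 and a UMI in 98.7%, 97.1% and 96.3% of cells. Arterial-like ECs had 2000.0, 3282 and 1055 CPM and Vwf Nr2f2 ECs 757, 1303 and 221 CPM. Npr3 Cytl1 Cdh11 ECs had only 458, 46.2 and 109 CPM and lymphatic-like ECs 473, 1330 and 291 CPM, the latter with 1 UMI at 12 weeks. In FBs the level was highest in Postn Cilp Thbs4 cells at 0 and 12 weeks (7330 and 7383 CPM), and at 2 weeks Pi16 Cd248 FBs had 9387 CPM in 16 cells.

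A further 38 genes of IGF signalling were read in 4 lists, first with each gene in the class where it had most UMIs. Of 9 receptors and receptor partners, 9 passed the count minimum at 2 weeks with no call and 8 at 12 weeks with 1 called higher, the insulin receptor gene Insr in ECs (15.9, 26.7 and 45.5 CPM, 12 to 0 weeks 2.86, 1.66 to 4.77). Of 10 genes for carriers and for release of IGF, 5 passed and 1 was called, Htra1, which encodes a secreted protease, in FBs at 2 weeks (163 against 51.9 CPM, ratio 0.318, 0.168 to 0.547). Of 14 genes of signal transduction 13 passed at both times and 1 was called higher, Irs1, an adaptor of the receptor, in FBs at 2 weeks (18.7 against 75.9 CPM, 4.06, 2.31 to 6.79, 19 UMIs at 2 weeks). Of 5 genes of the growth hormone axis, which drives Igf1 in the liver, 5 passed at 2 weeks and 4 at 12 weeks, and the transcription factor gene Stat5b was called higher in ECs at 2 weeks (12.4 against 26.4 CPM, 2.13, 1.46 to 3.15). Beside these calls, 6.25% of all genes were higher in ECs at 12 weeks and 4.21% in ECs at 2 weeks. In FBs at 2 weeks 8.93% were lower and 5.3% higher. Over all 38 genes in ECs, 30 passed at 2 weeks with 1 higher and 3 lower, beside 4.21% and 6.5% of all genes. Their median log2 ratio was -0.03 beside 0.01 for all genes. In FBs 29 passed at 12 weeks with no call, beside 4.76% of all genes higher and 5.42% lower, and a median of 0.02 beside 0.01. In mural cells at 12 weeks 5 of 16 were called lower, beside 15.1% of all genes, with at most 2 UMIs at 12 weeks for 4 of the 5. In macrophages at 2 weeks 4 of 17 were called higher and 1 lower, beside 7.38% and 9.61% of all genes. Their median log2 ratio was 0.47 beside -0.01 for all genes. Of 26 genes in ECs at 12 weeks 1 was higher and 0 lower, beside 6.25% and 6.73%. Of 23 in FBs at 2 weeks 2 were higher and 1 lower, beside 5.3% and 8.93%. Of 24 in mural cells at 2 weeks 0 were higher and 2 lower, beside 3.46% and 9.15%. Of 12 in macrophages at 12 weeks 0 were higher and 1 lower, beside 6.06% and 8.5%.

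Across the 12 class and phase values, which share 3 libraries, the genes most like each member by Pearson's r of log2(CPM + 10) were taken from 7831 genes with at least 200 UMIs, as a description. For Igf1 these were Ifi27l2a (0.96), Calr (0.96) and Ggh (0.95), and for Igf2 Ktn1 (0.95), She (0.94) and Prdm16 (0.94). Igf1r was nearest to Ctps (0.89), Etnk1 (0.88) and Ubr1 (0.87), the lowest values of the family. Igfbp3 was nearest to Cyb561 (0.97), Ier2 (0.95) and Npr1 (0.94), and Igfbp4 to Gpx3 (0.97), Serpinf1 (0.97) and Loxl1 (0.96). Igfbp5 was nearest to Rbfox2, Ebf1 and Prkcdbp (0.98 each), Igfbp6 to Prelp, Itgbl1 and Smoc2 (0.98 each) and Igfbp7 to Cttn, Nfia and Sparc (0.98 each). Some of these, such as Serpinf1, Loxl1, Prelp, Smoc2 and Sparc, encode secreted or matrix proteins, as the binding proteins do. Others do not, among them all those named for Igfbp3 and Igfbp5.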

How the data were processed

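Droplet-based scRNA-seq of non-CMs was available for 3 libraries, 1 per phase, grouped by the labels. The authors deposited raw UMI counts per gene and cell, made with Cell Ranger 2.0.0 on mm10 per the submitters' processing notes. Cells with at least 200 genes were kept (3892, 2231 and 792). A cell took the class whose marker genes had the largest UMI sum, if that was at least 3 and at least 2 times the next of 8 lists; groups within a class needed 2 UMIs. Doublets were kept in the main values. Counts were summed per class and library and given as CPM with exact Poisson intervals; ratios have exact conditional binomial intervals, shares Clopper-Pearson intervals, and a 0 was put at 3 counts in calls. A call needed at least 20 UMIs over both phases and at least 5 expected in the smaller. The calling rule was tested only on simulated counts that held counting error alone. They had no spread between cells or libraries, so that test does not cover calls that rest on few cells. All 9 members are named; pathway genes are named where they pass 2-fold in the class with most of their UMIs, at most 3 per list and direction, and likeness genes are the top 3. Members and lists were chosen with earlier results of these data known. Promoters are from RefSeq (GRCm38.p6) and coordinates from GENCODE's annotation of GRCm38. Python 3.11.15, numpy 2.4.6, scipy 1.17.1, pandas 2.3.3 and scanpy 1.11.5 were used.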

Additional observations from a re-analysis of the deposited data

Results flagged for a closer look

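The Igfbp3 ratio of 12 to 0 weeks lay on different sides of 1 between classes. It was 2.08 (1.63 to 2.63) in ECs and 3.37 (2.73 to 4.13) in FBs. In mural cells it was 0.293 (0.0349 to 1.09), with 2 UMIs at 12 weeks, so a lower mural level was not shown beyond counting error. The call held in 6 of 11 other settings in ECs and in 8 of 11 in mural cells. The difference between classes was not tested.

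Cells of the epicardial marker list (Msln, Upk3b and Upk1b) were left out of the comparisons. They had higher levels of 2 binding proteins than the class sum of any of the 4 classes. Igfbp5 had 13252 CPM in 3 healthy cells, 30837 CPM in 1 cell at 2 weeks and 8547 CPM in 1 cell at 12 weeks, and Igfbp6 11098, 17621 and 6885 CPM in the same cells. In each library the lower end of the interval lay above the upper end in the 4 classes. The 2-week cell held only 681 UMIs, 19.2% of them mitochondrial. Against groups within a class the order differed: at 12 weeks the 4 lymphatic-like ECs had 9027 CPM of Igfbp5, above the epicardial cell.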

How the results depend on the processing

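No paired analysis was possible because each phase is 1 library, with 1 replicate number. Over all classes and both comparisons with the healthy library 10 calls of members were made. The number of calls stayed within 1.5 times under each of the 11 other settings tried, but not the genes called: with cells thinned to 1000 UMIs 6 of the 10 were lost and 5 others appeared, with the gate on different markers 4 were lost and 2 appeared, and under each of the other 9 settings at most 1 was lost and at most 2 appeared. In ECs at 12 weeks 2 calls became 1 with a stricter minimum of genes per cell, with the mean over cells, with the median log2 ratio set to 0 and with thinning, where both were lost and Igf2 was called in their place. Igf2 in ECs at 12 weeks, at 0.544, was called lower under 4 settings (0.495, 0.453, 0.455 and 0.329, the last with thinning), which gave 3 calls without cells over 10% mitochondrial. In ECs at 2 weeks Igfbp3 was also called with the mean over cells (2.03) and Igfbp5 with thinning (0.421). In FBs 1 call at 12 weeks became 2 with the mean over cells (Igf1r, lower), and 0 at 2 weeks became 1 (Igfbp5, higher) with the gate on different markers and 2 with thinning (Igfbp5, higher, and Igfbp3, lower). In mural cells 3 calls at 12 weeks became 1, and 1 at 2 weeks became 0, with the gate on different markers and with thinning, which held 33 and 29 cells at 12 weeks in place of 39. The 1 left at 12 weeks was Igf1r with the other gate, and with thinning none of the 3 held and Igfbp5 (0.492) was called. There Igfbp3 was at 0 UMIs at 12 weeks under both, and the 3 counts put in its place gave ratios of 1.77 and 2.24; Igf2 likewise gave 1.29 with thinning. These follow from that floor. Igfbp6 in ECs at 12 weeks went from 0.408 to 1.08 in ECs without FB UMIs, an alternative chosen after seeing the data. Igf2 and Igfbp6 in ECs at 2 weeks, Igfbp3 in FBs at 12 weeks and Igfbp4 in macrophages at 2 weeks kept their calls in 11 of these 11 settings, with ratios of 0.196 to 0.282, 0.0983 to 0.154, 3.34 to 3.65 and 0.291 to 0.494. Scrublet marked 35, 2 and 5 cells as doublets at 0, 2 and 12 weeks, so doublets may remain. The few FBs, mural cells and macrophages after TAC limit what could be detected.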

Other observations

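H19, an imprinted noncoding RNA gene next to Igf2, was counted beside it after its place among the leading genes of Npr3 Cytl1 Cdh11 ECs was seen. In the healthy library 127 of its 168 EC UMIs lay in those cells (466 CPM, 388 to 554), and 35 in Vwf Nr2f2 ECs (193 CPM). Arterial-like ECs, which had 471 CPM of Igf2, had no H19 UMI (upper limit 17.9 CPM), and neither did mural cells. At 2 weeks the Npr3 Cytl1 Cdh11 ECs had 924 CPM (660 to 1258) of H19 but 208 CPM of Igf2. At 12 weeks no H19 UMI was counted in any of the 4 classes, with an upper limit of 57.5 CPM in the 26 Npr3 Cytl1 Cdh11 ECs, although their Igf2 was 265 CPM. Over all ECs, however, H19 went from 49.5 to 14.5 CPM between 0 and 2 weeks and Igf2 from 156 to 38.2 CPM, and in Vwf Nr2f2 ECs H19 went from 193 to 33.1 CPM and Igf2 from 238 to 5.52 CPM.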
